A study of Homo sapiens with 4 samples.

Results

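The genes described here are 37 members of the Hippo pathway and its output, chosen by gene symbol among the 24424 symbols measured. They comprise 19 target genes of the coactivators YAP and TAZ and 18 components of the pathway itself. All 37 were found under their listed symbols, and all 37 reached 1 CPM (counts per 1e+06 counts of the library) in every comparison, with no count below 58 in any library. RNA was sequenced from BEAS-2B, a human airway line that was immortalised from bronchial epithelium and whose genotype is given as wild type in all groups, grown in bronchial epithelial medium. The 4 groups, of 1 library each, were siOCLN+LPS (siRNA against occludin over 24 h, with LPS added afterwards over 2 h), a library labelled wtOCLN+LPS (transfection of wild-type occludin over 24 h, then the same LPS step), LPS over 2 h alone, and control. LPS is bacterial lipopolysaccharide, a ligand of the receptor TLR4, and occludin is a transmembrane protein of tight junctions. The labels mention neither a transfection nor a mock transfection for LPS or control, and they do not name the vector or the LPS dose.

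Hippo signalling links cell contact, polarity and the actin cytoskeleton to growth. The kinases MST1 and MST2 (genes STK4 and STK3), with the scaffold SAV1, activate LATS1 and LATS2, which with MOB1 proteins phosphorylate YAP and TAZ and keep them out of the nucleus. Unphosphorylated YAP and TAZ bind TEAD factors and raise transcription of targets such as CTGF, CYR61 and ANKRD1. The pathway is regulated largely at the protein level and by location within the cell, which counts of RNA do not measure.

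Libraries held 13867494 to 17500031 counts in all, and a single count equalled 0.0571 to 0.0721 CPM. OCLN, the targeted gene, stood at 21.0 CPM in siOCLN+LPS and 29.7 CPM in the wtOCLN+LPS-labelled library, against 50.4 CPM in LPS and 55.4 CPM in control. The wtOCLN label is not borne out by OCLN, so that library keeps its label as a name here, and nothing measured in it stands for raised occludin. Of 6 epithelial markers all reached 1 CPM in every library, and their summed level was 1661 CPM in siOCLN+LPS and 1566 CPM in the wtOCLN+LPS-labelled library, against 697 CPM in LPS and 848 CPM in control. EPCAM was at most 2.67 CPM. Among markers of other cells, the 7 fibroblast markers summed to 106 and 111 CPM in the transfected libraries and to 76.7 and 70.4 CPM in LPS and control, nearly all of it COL1A1 and PDGFRB, while COL3A1, DCN and LUM had 0 or 1 count. The 5 endothelial markers summed to at most 1.59 CPM. The 6 leukocyte markers summed to 5.09 and 7.71 CPM in the transfected libraries and to 17.4 CPM in both LPS and control, nearly all of it CD68, while PTPRC and CD3E had at most 3 counts.

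With 1 library per group there is no replicate check and no p-value, and every statement compares libraries rather than conditions. Calls of higher or lower were made at a 2-fold difference on the log2(CPM + 1) scale, which slightly understates the change of low genes. Folds are ratios of CPM without a pseudocount, followed by their exact 95% Clopper-Pearson interval. These intervals cover counting error only.

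Most target genes stood above LPS in both transfected libraries, 14 of 19 in siOCLN+LPS and 16 of 19 in the wtOCLN+LPS-labelled library, where 39.2% and 36.8% of all tested genes did. Of the 18 pathway components, 14 stood below LPS in siOCLN+LPS, where 60.8% of all tested genes did, and 12 in the wtOCLN+LPS-labelled library, where 63.2% did, a share near that of all genes. With TMM scaling 12 and 11 components were below, where 48.9% and 48.6% of all tested genes were. In siOCLN+LPS against LPS, 5 of the 37 genes were at least 2-fold higher and 0 lower, where 3.32% of all 13505 tested genes were higher and 3.92% lower. In the wtOCLN+LPS-labelled library against LPS, 5 were higher and 0 lower, where 3.32% of 13493 tested genes were higher and 3.69% lower. The same 5 genes made up both counts, namely ANKRD1, GLI2, EDN1, CTGF and NT5E, all of them targets. These comparisons share the LPS library, so their likeness is not a separate observation. The labels mention no transfection for LPS or control. Against either of these libraries, occludin and transfection itself therefore cannot be told apart. In LPS against control, 4 were at least 2-fold higher and 0 lower, where 1.6% of 13551 tested genes were higher and 0.207% lower. Those were EDN1, NUAK2, TGFB2 and the component FRMD6. At a 1.5-fold threshold, 7 were higher and 6 lower in siOCLN+LPS against LPS, where 9.09% and 15.3% of all tested genes were. In the wtOCLN+LPS-labelled library against LPS, 11 were higher and 4 lower at that threshold, where 8.59% and 15.1% were. In LPS against control 7 were higher at 1.5-fold, where 3.45% of all tested genes were. In bulk RNA, fewer cells of a type and less RNA per cell cannot be told apart.

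The medians set the targets apart from all tested genes more than the components. The 19 targets had a median log2 ratio of 0.38 in siOCLN+LPS against LPS, beside -0.13 over all tested genes. In the wtOCLN+LPS-labelled library against LPS it was 0.60, beside -0.15 over all tested genes. The 18 components had medians of -0.34 in siOCLN+LPS and -0.20 in the wtOCLN+LPS-labelled library, the second close to that of all tested genes. TMM scaling moved the median of all tested genes to 0.01 in each, and the medians to 0.53 and 0.76 for targets and to -0.20 and -0.04 for components. In LPS against control the targets had a median of 0.26 and the components one of -0.04, beside -0.09 over all tested genes, and the components' median was 0.06 with TMM scaling.

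**Figure D1:**
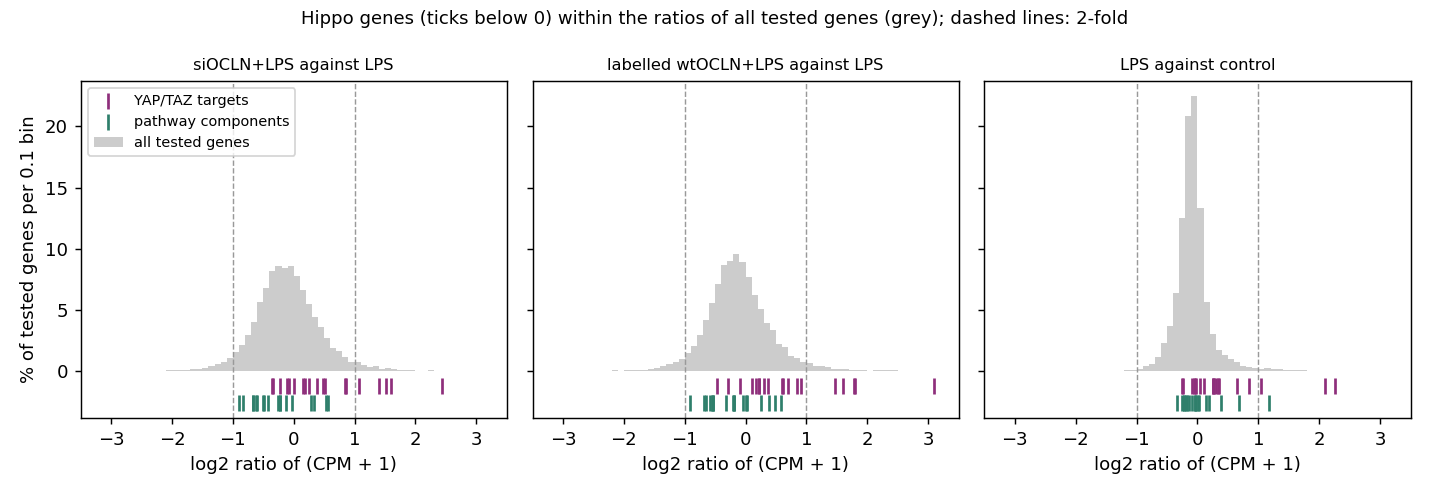
Log2 ratio of (CPM + 1) on the x axis and the percentage of tested genes in each bin on the y axis (grey bars), with YAP/TAZ targets (purple ticks) and pathway components (green ticks) drawn under the bars at their own ratios. In both transfected libraries against LPS, 5 purple ticks lie right of the 2-fold line and no green tick lies left of it, and the components reach down to log2 ratios of -0.90 and -0.92.

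Among the targets in most common use as readouts, CYR61 had no promoter entry. Promoter sequences are shown for CTGF and ANKRD1, which are in like use, and for EDN1 and NUAK2, the members farthest above control in LPS. They are the 250 bases before the transcription start, 5′ to 3′ on the strand of the gene, from RefSeq on GRCh38.p14 (the counts rest on hg19, per the submitters' processing notes, and carry no coordinates). Capitals mark GGAATG, the core that TEAD factors bind, or its reverse complement CATTCC. CTGF is listed there as CCN2, at chr6:131951373-131951622 on the minus strand, ANKRD1 at chr10:90921088-90921337 on the minus strand, EDN1 at chr6:12290111-12290360 on the plus strand (the last of 3 starts) and NUAK2 at chr1:205321746-205321995 on the minus strand.
CTGF: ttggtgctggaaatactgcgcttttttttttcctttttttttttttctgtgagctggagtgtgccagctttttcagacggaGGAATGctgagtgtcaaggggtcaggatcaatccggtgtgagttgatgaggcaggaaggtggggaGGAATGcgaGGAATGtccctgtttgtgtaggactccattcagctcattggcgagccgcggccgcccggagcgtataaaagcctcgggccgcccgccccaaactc
ANKRD1: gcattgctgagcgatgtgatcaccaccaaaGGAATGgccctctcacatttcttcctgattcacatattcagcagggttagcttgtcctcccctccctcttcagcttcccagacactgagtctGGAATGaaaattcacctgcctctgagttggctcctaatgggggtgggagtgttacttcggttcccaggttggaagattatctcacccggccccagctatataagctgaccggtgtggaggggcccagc
EDN1: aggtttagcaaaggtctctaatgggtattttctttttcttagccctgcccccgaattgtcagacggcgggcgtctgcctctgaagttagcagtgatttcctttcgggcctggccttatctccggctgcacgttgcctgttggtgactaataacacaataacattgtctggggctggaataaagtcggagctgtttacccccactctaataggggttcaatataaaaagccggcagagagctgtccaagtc
NUAK2: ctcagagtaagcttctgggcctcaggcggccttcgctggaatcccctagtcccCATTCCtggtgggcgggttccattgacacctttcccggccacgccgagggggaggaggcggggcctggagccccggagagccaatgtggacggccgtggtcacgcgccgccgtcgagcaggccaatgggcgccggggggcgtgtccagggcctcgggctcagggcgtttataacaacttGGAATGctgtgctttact

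With the start counted as 0, the CTGF promoter held GGAATG beginning at -169, -104 and -95, and 0.128% of all 35116 promoter windows held it 3 times or more. ANKRD1 held it at -220 and -128, and NUAK2 at -197 and -18, where 1.37% of windows held it at least 2 times. Those letters are not in the EDN1 window printed, and another of its starts held them once. Over the full windows, which reach a short way past the start and were searched on both strands, 29 of the 37 genes had an entry. Of 15 matched targets, 9 held GGAATG at a start, in 9 of their 21 windows (42.9%). Of 14 matched components, 2 held it, in 2 of 23 windows (8.7%), beside 14% of all windows. The AP-1 site TGANTCA was in 9.52% of the windows of targets and 8.7% of those of components, beside 7.71% of all windows. These matches describe letters and not binding.

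Secreted and cell surface targets were 8 in number. In each transfected library 3 of them were at least 2-fold higher than in LPS, where 3.32% of all tested genes were. CTGF, a matricellular protein and the classical YAP readout, stood at 1625 CPM in siOCLN+LPS, 1701 CPM in the wtOCLN+LPS-labelled library, 611 CPM in LPS and 478 CPM in control. It was high in both transfected libraries, 2.66-fold above LPS in siOCLN+LPS (2.60 to 2.72) and 2.78-fold above it in the other (2.72 to 2.85). LPS stood 1.28-fold above control (1.24 to 1.32). CYR61, its close relative among the CCN proteins, went another way. It stood at 783 CPM in siOCLN+LPS, 983 CPM in the wtOCLN+LPS-labelled library, 919 CPM in LPS and 584 CPM in control. Control was the lowest library, and the other 3 lay closer together. CYR61 was 1.57-fold higher in LPS than in control (1.53 to 1.62), 0.852 of the LPS level in siOCLN+LPS (0.832 to 0.873) and 1.07-fold the LPS level in the wtOCLN+LPS-labelled library (1.05 to 1.09).

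EDN1, which encodes the vasoactive peptide endothelin-1, had the widest range of any member as a ratio of its highest to its lowest level. It stood at 62.8 CPM in siOCLN+LPS, 75.8 CPM in the wtOCLN+LPS-labelled library, 21.2 CPM in LPS and 3.65 CPM in control. No 2 libraries overlapped in their counting intervals, and the transfected libraries were the closest pair. LPS was 5.81-fold above control (4.37 to 7.84), siOCLN+LPS 2.96-fold above LPS (2.60 to 3.38) and the wtOCLN+LPS-labelled library 3.57-fold above LPS (3.15 to 4.07). NT5E, the ecto-enzyme CD73 that makes adenosine, stood at 31.0 CPM in siOCLN+LPS, 51.0 CPM in the wtOCLN+LPS-labelled library, 14.1 CPM in LPS and 11.7 CPM in control. It was 2.19-fold above LPS in siOCLN+LPS (1.86 to 2.59) and 3.61-fold in the other (3.09 to 4.23), and LPS did not part from control by counting error (1.21-fold, 0.983 to 1.48).

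TGFB2, a ligand of the TGF-beta receptors, was lowest in control and highest in the wtOCLN+LPS-labelled library. It stood at 56.2 CPM in siOCLN+LPS, 90.7 CPM in the wtOCLN+LPS-labelled library, 59.0 CPM in LPS and 28.2 CPM in control. LPS was 2.09-fold above control (1.86 to 2.35), and siOCLN+LPS was within counting error of LPS (0.953, 0.867 to 1.05). The library labelled wtOCLN+LPS was 1.54-fold above LPS (1.41 to 1.67). CRIM1, a membrane protein that binds BMPs, stood at 465 CPM in siOCLN+LPS, 540 CPM in the wtOCLN+LPS-labelled library, 333 CPM in LPS and 263 CPM in control, an order like that of CTGF with smaller steps. FJX1, whose fly relative four-jointed phosphorylates the cadherins Fat and Dachsous, ran from 166 to 221 CPM over the 4 libraries. AXL, a receptor tyrosine kinase, ran from 405 to 484 CPM, and LPS was the lowest library.

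**Figure D2:**
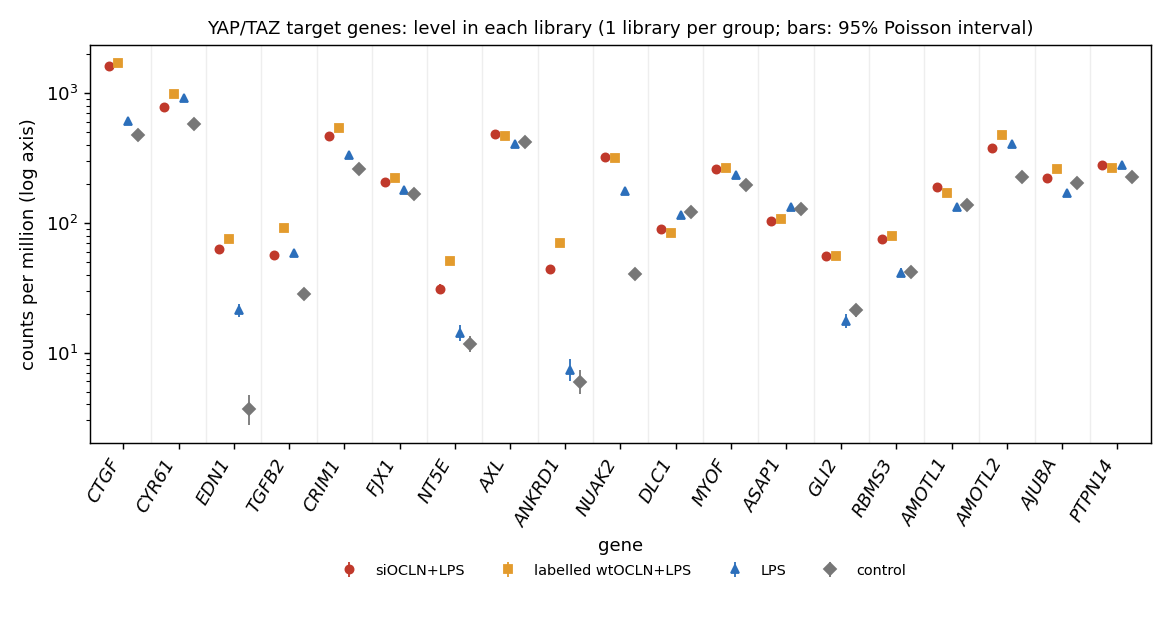
Level of each of the 19 YAP/TAZ target genes in CPM (log axis), 1 point per library with its exact 95% Poisson interval, libraries ordered siOCLN+LPS, labelled wtOCLN+LPS, LPS and control. ANKRD1, GLI2, NT5E and CTGF have both transfected libraries above both others. EDN1 and NUAK2 do too, with LPS 5.81-fold and 4.35-fold above control, beside 1.28-fold for CTGF. CYR61 has control alone at the bottom.

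Among the 7 targets that act inside the cell, ANKRD1 was farthest from LPS. ANKRD1, an ankyrin repeat protein of muscle sarcomeres and the nucleus, stood at 44.3 CPM in siOCLN+LPS, 70.7 CPM in the wtOCLN+LPS-labelled library, 7.36 CPM in LPS and 5.98 CPM in control. Both transfected libraries were far above the others, 6.03-fold above LPS in siOCLN+LPS (4.90 to 7.49) and 9.61-fold in the other (7.85 to 11.9). Of all tested genes it was number 23 from the top in siOCLN+LPS against LPS and number 19 in the wtOCLN+LPS-labelled library against LPS. LPS and control did not part by counting error (1.23-fold, 0.921 to 1.64). GLI2, a transcription factor of Hedgehog signalling, stood at 55.3 CPM in siOCLN+LPS, 55.7 CPM in the wtOCLN+LPS-labelled library, 17.6 CPM in LPS and 21.1 CPM in control. The transfected libraries were level with each other and 3.14-fold (2.73 to 3.63) and 3.16-fold (2.75 to 3.65) above LPS.

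NUAK2, a kinase related to AMPK, stood at 320.4 CPM in siOCLN+LPS, 319.8 CPM in the wtOCLN+LPS-labelled library, 177 CPM in LPS and 40.7 CPM in control. LPS was 4.35-fold above control (3.98 to 4.75), and both transfected libraries were 1.81-fold above LPS (1.73 to 1.90 in each), just short of the 2-fold line. With TMM scaling NUAK2 passed that line in both, and RBMS3 passed it in the wtOCLN+LPS-labelled library. RBMS3, an RNA-binding protein, stood at 75.2 CPM in siOCLN+LPS, 78.9 CPM in the wtOCLN+LPS-labelled library, 41.3 CPM in LPS and 42.2 CPM in control. MYOF, the membrane repair protein myoferlin, was at 261 and 266 CPM in siOCLN+LPS and the wtOCLN+LPS-labelled library, 236 CPM in LPS and 196 CPM in control. On the other side lay DLC1, a gene deleted in some liver cancers, and ASAP1, which inactivates Arf proteins. DLC1 was at 89.8 CPM in siOCLN+LPS and 83.0 CPM in the wtOCLN+LPS-labelled library, against 115 CPM in LPS and 123 CPM in control. ASAP1 was at 104 and 108 CPM in the transfected libraries, 132 CPM in LPS and 128 CPM in control. These were the lowest targets in both transfected libraries against LPS, at 0.722 to 0.818 of the LPS level.

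The 4 targets that feed back on the pathway all stayed within 2-fold of LPS in both transfected libraries, as most tested genes did. Of all tested genes, 3.32% were at least 2-fold higher in each, and 3.92% and 3.69% lower. AMOTL2, an angiomotin-like protein that holds YAP at junctions, stood at 377 CPM in siOCLN+LPS, 474 CPM in the wtOCLN+LPS-labelled library, 405 CPM in LPS and 224 CPM in control. Like CYR61, it set control apart from the rest, with LPS 1.80-fold above control (1.73 to 1.88). AMOTL1, its relative, stood at 190 CPM in siOCLN+LPS, 171 CPM in the wtOCLN+LPS-labelled library, 132 CPM in LPS and 137 CPM in control, so that the transfected libraries were the higher ones. AJUBA, a LIM protein that binds and inhibits LATS kinases, stood at 223 CPM in siOCLN+LPS, 259 CPM in the wtOCLN+LPS-labelled library, 171 CPM in LPS and 202 CPM in control. PTPN14, a phosphatase that retains YAP in the cytoplasm, ran from 225 to 281 CPM, and siOCLN+LPS was within counting error of LPS (1.01-fold, 0.964 to 1.05).

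The coactivators and most TEAD factors were at or above the LPS level in the transfected libraries. None was past 2-fold, where 3.32% of all tested genes were higher in each, and 3.92% and 3.69% lower. YAP1 stood at 233 CPM in siOCLN+LPS, 229 CPM in the wtOCLN+LPS-labelled library, 192 CPM in LPS and 197 CPM in control. WWTR1, the gene of TAZ, stood at 331 CPM in siOCLN+LPS, 321 CPM in the wtOCLN+LPS-labelled library, 229 CPM in LPS and 262 CPM in control. Both coactivator genes were thus highest in the transfected libraries, WWTR1 by 1.44-fold (1.38 to 1.51) and YAP1 by 1.21-fold (1.16 to 1.27) in siOCLN+LPS over LPS. TEAD2 stood at 40.8 and 41.6 CPM in siOCLN+LPS and the wtOCLN+LPS-labelled library, 27.3 CPM in LPS and 26.7 CPM in control. TEAD3 stood at 59.4 and 61.5 CPM in the transfected libraries, 46.8 CPM in LPS and 55.8 CPM in control. TEAD1 ran from 426 to 479 CPM and TEAD4 from 33.6 to 46.2 CPM, with no step above 1.5-fold.

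TEAD4 was at 0.852 of the LPS level in siOCLN+LPS (0.757 to 0.958) and within counting error of LPS in the wtOCLN+LPS-labelled library (1.01, 0.900 to 1.13). VGLL4, which competes with YAP for TEAD factors, was lower in both. It stood at 32.0 CPM in siOCLN+LPS, 34.0 CPM in the wtOCLN+LPS-labelled library, 49.8 CPM in LPS and 63.1 CPM in control. Both transfected libraries were lower than LPS, at 0.644 (0.575 to 0.721) and 0.683 (0.611 to 0.764) of its level, and LPS was at 0.788 of control (0.714 to 0.869).

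In the kinase core, LATS1 and LATS2 were the components farthest below LPS in siOCLN+LPS, while LATS1 was followed by FRMD6 and MOB1B in the wtOCLN+LPS-labelled library. LATS1 stood at 50.5 CPM in siOCLN+LPS, 47.6 CPM in the wtOCLN+LPS-labelled library, 90.9 CPM in LPS and 89.8 CPM in control. LATS2, which is also a YAP/TAZ target, stood at 112 CPM in siOCLN+LPS, 140 CPM in the wtOCLN+LPS-labelled library, 212 CPM in LPS and 215 CPM in control. LPS and control were level for both, and the transfected libraries were lower. LATS1 was at 0.555 of the LPS level in siOCLN+LPS (0.509 to 0.606) and 0.524 in the wtOCLN+LPS-labelled library (0.479 to 0.572). LATS2 was at 0.532 (0.502 to 0.563) and 0.664 (0.629 to 0.701). None of these passed 2-fold. Among 13505 genes tested in siOCLN+LPS against LPS, LATS2 was number 716 from the bottom and LATS1 number 895, so many other genes lay lower.

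MOB1B, a binding partner that activates LATS, stood at 46.9 CPM in siOCLN+LPS, 45.4 CPM in the wtOCLN+LPS-labelled library, 71.5 CPM in LPS and 83.1 CPM in control. Its paralog MOB1A stood at 55.5 CPM in siOCLN+LPS, 64.2 CPM in the wtOCLN+LPS-labelled library, 66.5 CPM in LPS and 72.9 CPM in control. The step was smaller for MOB1A, and in the wtOCLN+LPS-labelled library it was within counting error of LPS (0.966, 0.885 to 1.06) and above LPS with TMM scaling (log2 ratio 0.12). The sources used here do not say how reads that fit both of these paralogs, if any, were counted. SAV1 stood at 54.3 CPM in siOCLN+LPS, 61.8 CPM in the wtOCLN+LPS-labelled library, 77.3 CPM in LPS and 67.8 CPM in control. STK4 ran from 150 to 188 CPM and STK3 from 27.2 to 32.2 CPM, with control highest for both. All 7 core genes were below LPS in each transfected library with library totals, with a median log2 ratio of -0.50 in siOCLN+LPS and -0.32 in the wtOCLN+LPS-labelled library. With TMM scaling 6 of the 7 were below, and the medians were -0.36 and -0.15. Of all tested genes, 60.8% and 63.2% were below LPS with library totals, and 48.9% and 48.6% with TMM scaling.

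Of all the components, the upstream regulator FRMD6 lay farthest from control in the LPS library. FRMD6, a FERM protein also called Willin, stood at 134 CPM in siOCLN+LPS, 133 CPM in the wtOCLN+LPS-labelled library, 215 CPM in LPS and 94.5 CPM in control. LPS was the highest library, 2.27-fold above control (2.13 to 2.42), and the transfected libraries lay between LPS and control, at 0.626 (0.593 to 0.661) and 0.620 (0.587 to 0.655) of LPS. LIMD1, a LIM protein that inhibits LATS as AJUBA does, stood at 81.8 CPM in siOCLN+LPS, 77.9 CPM in the wtOCLN+LPS-labelled library, 115 CPM in LPS and 71.1 CPM in control. It too was highest in LPS. WWC1, the scaffold KIBRA, stood at 167 CPM in siOCLN+LPS, 195 CPM in the wtOCLN+LPS-labelled library, 225 CPM in LPS and 172 CPM in control. NF2, the FERM protein merlin that brings LATS to the membrane, had another order, at 67.5 CPM in siOCLN+LPS, 74.2 CPM in the wtOCLN+LPS-labelled library, 108 CPM in LPS and 122 CPM in control. NF2 was lower than LPS in both transfected libraries, at 0.624 (0.577 to 0.674) and 0.686 (0.636 to 0.739). All 4 regulators were below LPS in both transfected libraries under each of the 4 scalings. Below LPS were also 60.8% and 63.2% of all tested genes with library totals, and 48.9% and 48.6% with TMM scaling. Against control, the median log2 ratio of the 4 was 0.08 in siOCLN+LPS and 0.15 in the wtOCLN+LPS-labelled library. Over all tested genes it was -0.22 and -0.24. With TMM scaling 3 of the 4 were above control in each.

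**Figure D3:**
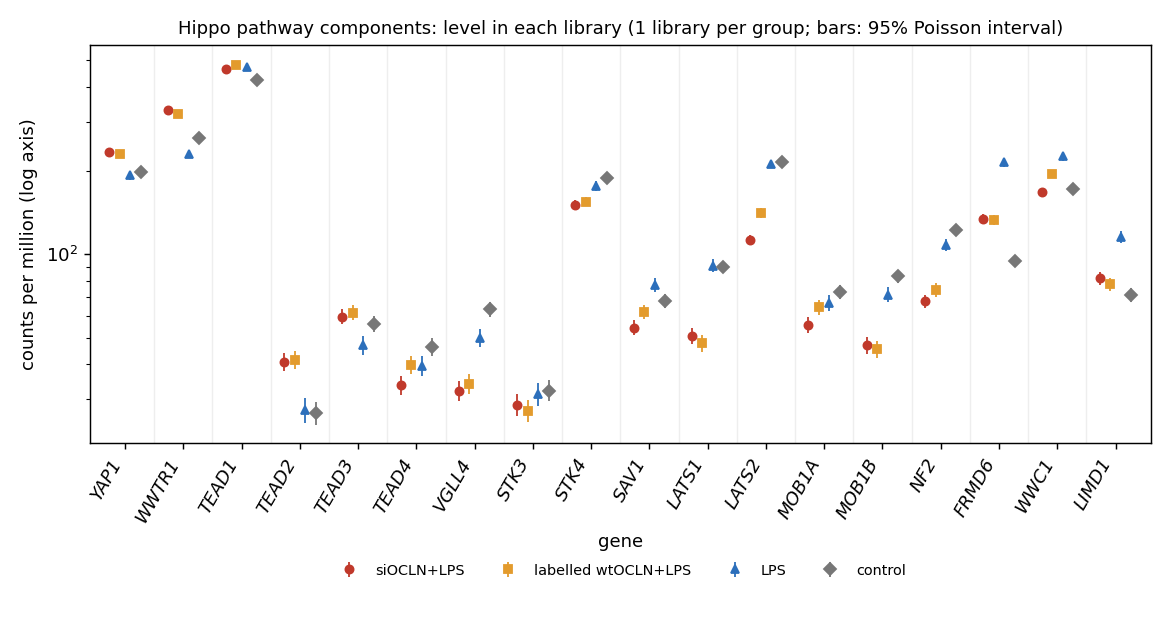
Level of each of the 18 pathway components in CPM (log axis), 1 point per library with its exact 95% Poisson interval, libraries ordered siOCLN+LPS, labelled wtOCLN+LPS, LPS and control. LATS1, LATS2, MOB1B and NF2 have both transfected libraries below LPS and control, FRMD6 and LIMD1 have LPS at the top, and YAP1, WWTR1 and TEAD2 have the transfected libraries at the top.

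Set against control in place of LPS, the higher targets of the transfected libraries stayed high. All 7 genes of the kinase core were below control in each of them with library totals, and 6 of 7 in siOCLN+LPS and 4 of 7 in the wtOCLN+LPS-labelled library with TMM scaling. Of all tested genes, 66.6% and 68.8% were below control with library totals, and the core's median of -0.28 in the wtOCLN+LPS-labelled library was close to that of all tested genes (-0.24). In siOCLN+LPS against control, 6 of the 37 genes were at least 2-fold higher and 0 lower, where 3.94% of 13584 tested genes were higher and 5.44% lower. In the wtOCLN+LPS-labelled library against control, 9 were higher and 0 lower, where 3.91% of 13569 tested genes were higher and 4.91% lower. All of these were targets, and NUAK2, at 7.88-fold and 7.87-fold, passed the line in both. EDN1 was 17.2-fold above control in siOCLN+LPS and 20.8-fold in the wtOCLN+LPS-labelled library. LATS1 was at 0.562 of control in siOCLN+LPS and 0.530 in the wtOCLN+LPS-labelled library. FRMD6 turned over, at 1.42-fold and 1.41-fold above control.

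At 2-fold the transfected libraries differed little from each other, while some members were among the genes farthest apart. In siOCLN+LPS against the wtOCLN+LPS-labelled library, 0 of 37 genes were at least 2-fold higher and 0 lower, where 0.0763% of 13109 tested genes were higher and 0.29% lower. NT5E was at 0.607 of the level of the wtOCLN+LPS-labelled library (0.545 to 0.677), TGFB2 at 0.620 (0.572 to 0.671) and ANKRD1 at 0.627 (0.573 to 0.687). All 3 were lower in siOCLN+LPS. From the bottom of the 13109 tested genes, NT5E was number 94, TGFB2 number 101 and ANKRD1 number 109. CYR61 and AMOTL2 were at 0.796 (0.778 to 0.814) and 0.794 (0.769 to 0.820), and LATS2 was at 0.801 (0.755 to 0.851) of that level. Of the 37 genes, 25 were below 0 and 12 above, where 45.5% of all tested genes were below 0. At a 1.5-fold threshold 3 were lower, where 1.19% of all tested genes were. The libraries were transfected with different nucleic acids, so occludin and the kind of transfection cannot be told apart.

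**Figure D4:**
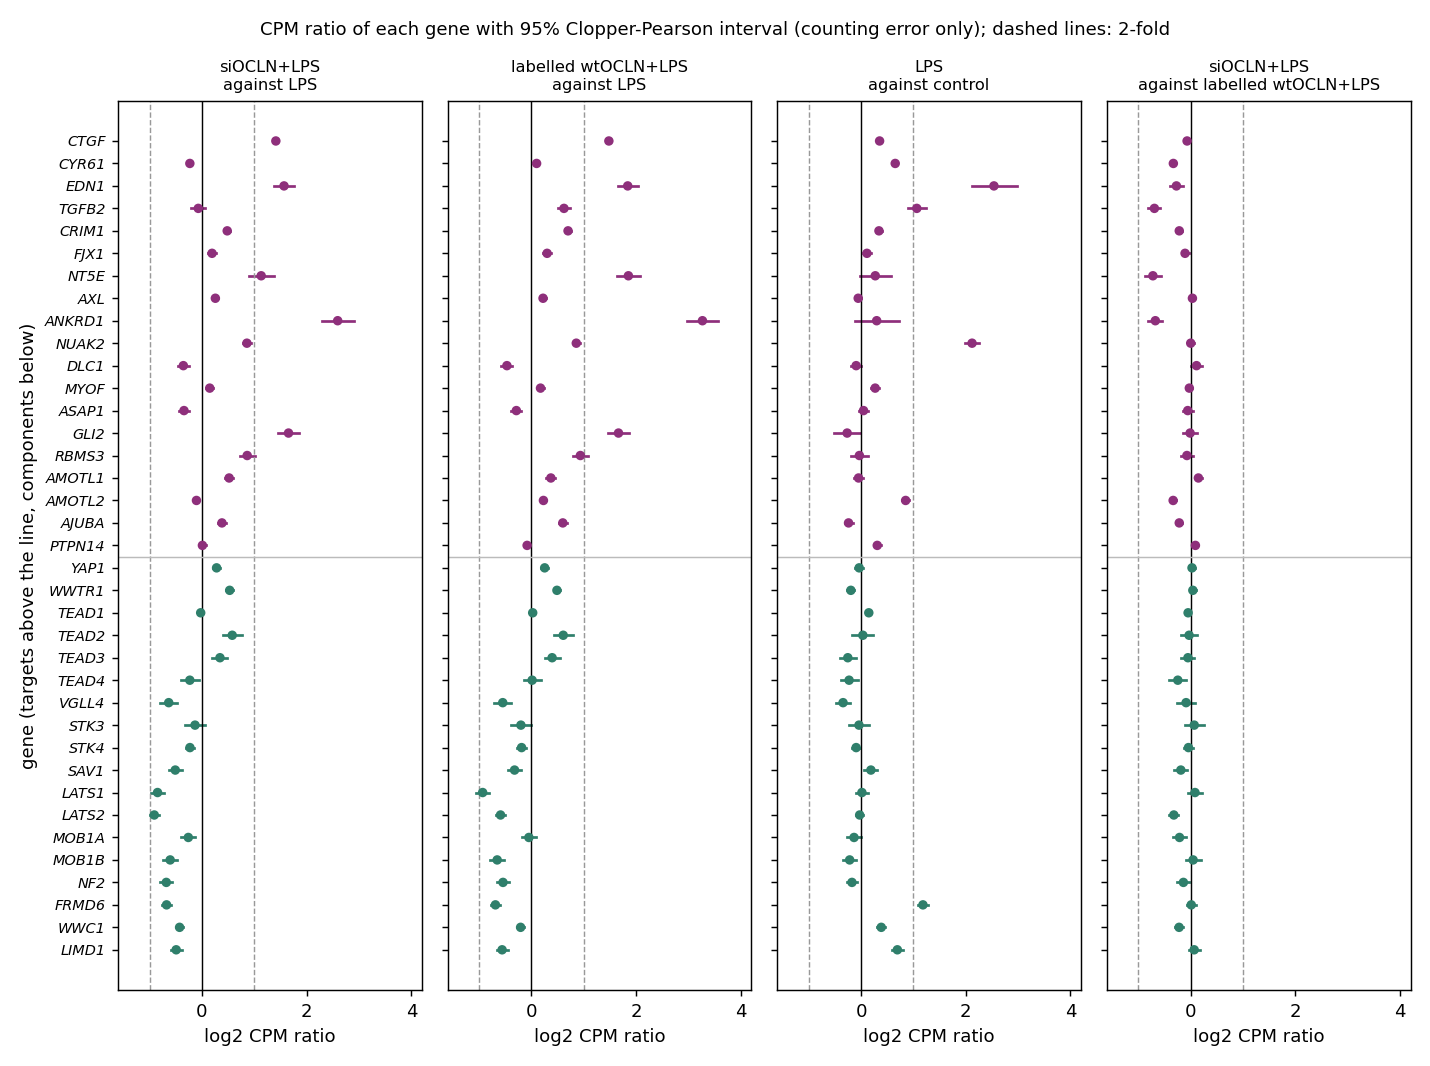
Log2 ratio of CPM for each of the 37 genes (points) with its exact 95% Clopper-Pearson interval (lines), in 1 panel per comparison, targets in purple above the grey line and components in green below it. ANKRD1 reaches 6.03-fold and 9.61-fold in the transfected libraries against LPS, EDN1 and NUAK2 lie at 5.81-fold and 4.35-fold in LPS against control, and no gene passes 2-fold between the transfected libraries.

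To compare levels between genes, CPM was divided by the length of the longest GENCODE 29 transcript. On this scale WWTR1 stood at 65.8 CPM per kb in siOCLN+LPS, 63.9 in the wtOCLN+LPS-labelled library, 45.6 in LPS and 52.2 in control. YAP1 was lower in each, at 43.2 CPM per kb in siOCLN+LPS, 42.4 in the wtOCLN+LPS-labelled library, 35.6 in LPS and 36.5 in control. With the union of exons as length, WWTR1 was below YAP1 in LPS and control (27.3 against 30.5 and 31.2 against 31.3 CPM per kb), so their order is not settled. TEAD1 was the highest TEAD factor by either length, at 50.2 to 56.6 CPM per kb of longest transcript, while TEAD2, TEAD3 and TEAD4 ran from 10.9 to 27.3. LATS2 exceeded LATS1 in every library by either length, at 20.4 against 6.71 CPM per kb in siOCLN+LPS and 39.1 against 11.9 in control. STK4 exceeded STK3 likewise, at 23.7 against 5.35 CPM per kb in siOCLN+LPS.

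**Figure D5:**
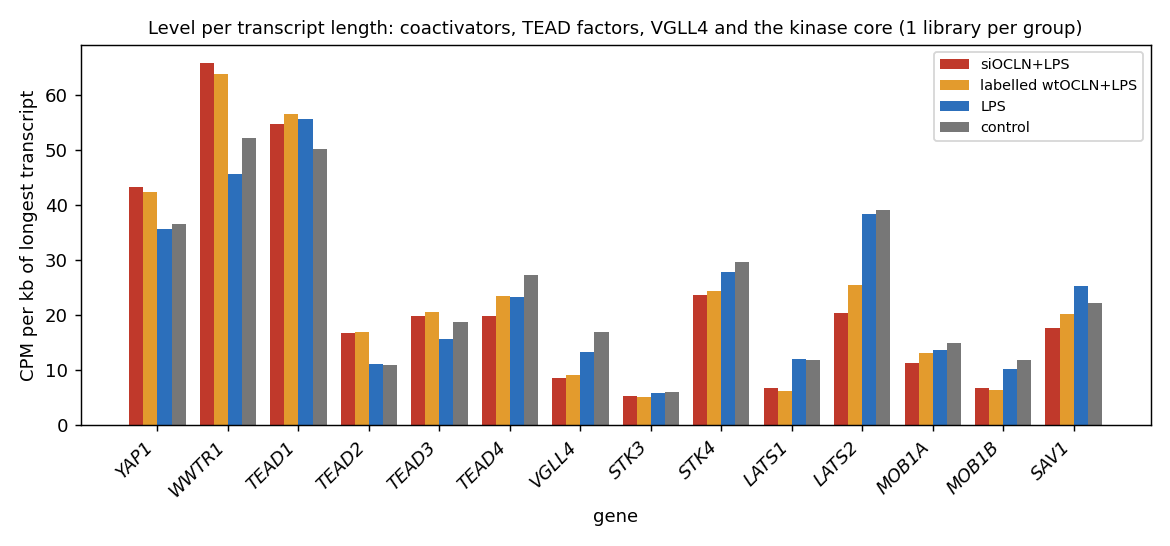
CPM per kb of the longest GENCODE 29 transcript (y axis, from 0) for coactivators, TEAD factors, VGLL4 and the kinase core, 1 bar per library in the order siOCLN+LPS, labelled wtOCLN+LPS, LPS and control. TEAD1 stands at 50.2 to 56.6 CPM per kb, above the other TEAD genes, and LATS2 is at 20.4 and 25.5 in the transfected libraries against 38.4 in LPS and 39.1 in control.

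A list of 39 further Hippo components held 34 tested genes in siOCLN+LPS against LPS, 2 of them past 2-fold upward and 0 downward. Of all tested genes, 3.32% were higher and 3.92% lower. The list had a median log2 ratio of -0.20, beside -0.13 over all tested genes. In the wtOCLN+LPS-labelled library against LPS, 1 was higher and 1 lower among 33 tested, where 3.32% and 3.69% of all tested genes were. The median there was -0.17, beside -0.15 over all tested genes. FAT4, a giant cadherin, stood at 105 CPM in siOCLN+LPS and 106 CPM in the wtOCLN+LPS-labelled library, against 44.9 CPM in LPS and 45.4 CPM in control, 2.33-fold (2.13 to 2.56) and 2.36-fold (2.16 to 2.59) above LPS. DCHS1, the cadherin that pairs with FAT4, was at 1.77 CPM in siOCLN+LPS and 1.03 CPM in the wtOCLN+LPS-labelled library, against 3.89 CPM in LPS and 3.52 CPM in control. AMOT, the founding angiomotin, was at 6.58 CPM in siOCLN+LPS, 4.11 CPM in the wtOCLN+LPS-labelled library, 2.74 CPM in LPS and 3.40 CPM in control. None of the 33 tested in LPS against control passed 2-fold, where 1.6% of all tested genes were higher and 0.207% lower. Of 16 further published YAP/TAZ targets, 13 were tested and none passed 2-fold in either transfected library against LPS. Their medians were 0.01 in siOCLN+LPS and 0.32 in the wtOCLN+LPS-labelled library, beside 0.38 and 0.60 for the 19 member targets. Above LPS stood 7 of the 13 in siOCLN+LPS and 9 in the wtOCLN+LPS-labelled library, where 39.2% and 36.8% of all tested genes did. With TMM scaling 8 and 10 did, where 51.1% and 51.4% of all tested genes did. The further targets thus lay less far above LPS than the members. In LPS against control 1 of the 13 further targets passed 2-fold upward, where 1.6% of all tested genes did. It was F3, which encodes tissue factor, at 504 CPM in LPS and 184 CPM in control, 2.73-fold higher (2.62 to 2.86).

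Markers of other states stood beside these values. Of 6 epithelial markers, KRT8, KRT18, KRT19 and CDH1 passed 2-fold upward in siOCLN+LPS against LPS, with KRT8 at 976 CPM in siOCLN+LPS and 372 CPM in LPS. In the wtOCLN+LPS-labelled library against LPS 3 of the 6 did, or 4 with TMM scaling. With library totals, 3.32% of all tested genes were that much higher in each. The median log2 ratio of the 6 was alike, at 1.18 in siOCLN+LPS and 1.13 in the wtOCLN+LPS-labelled library. KRT5 was at 19.1 CPM in siOCLN+LPS and 22.4 CPM in LPS, and EPCAM at 1.26 CPM in siOCLN+LPS and 2.67 CPM in LPS. PDGFRB, a receptor of mesenchymal cells, was at 49.4 CPM in siOCLN+LPS and 55.4 CPM in the wtOCLN+LPS-labelled library, against 13.8 CPM in LPS and 12.3 CPM in control. COL1A1, the other fibroblast marker above 1 CPM, was at 56.1 CPM in siOCLN+LPS and 55.2 CPM in the wtOCLN+LPS-labelled library, against 62.7 CPM in LPS and 57.6 CPM in control. Their part in the values of the Hippo genes was not tested. Exons of 18 of the 37 genes overlap another gene in GENCODE 29, 13 of them a gene on the opposite strand, CTGF, YAP1, WWTR1 and LATS1 included. The library kit keeps strand, but the sources used here do not say how strand was counted, so these values may hold reads of the overlapping gene.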

How the data were processed

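For each library the authors deposited a column of raw counts per gene symbol, whole numbers without normalization. The submitters' processing notes list TopHat, Cufflinks and hg19 with no role for each, and the sources used here give no counting tool, strand setting or annotation. CPM was taken from library totals, and log2 ratios from CPM + 1, over genes that reached 1 CPM in at least 1 of the libraries compared. A gene was called at 2-fold. With 1 library per group, edgeR's quasi-likelihood test has no residual degrees of freedom and was not fitted. Intervals are exact at 95% (Poisson for a CPM, Clopper-Pearson for a ratio) and cover counting error only. The precision follows from 13867494 to 17500031 counts per library.

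All 37 genes are named. Genes of other lists are named when past 2-fold, at most 4 per list and comparison. The members and lists were chosen with earlier results of these data known. Alternatives were a pseudocount of 0.1 or 5, a minimum of 5 CPM or none, a 1.5-fold threshold, TMM, median ratio and upper quartile scaling, the mean of a list, and control as reference. Calling was tested on simulated data. Gene lengths came from GENCODE 29, with the exon union as an alternative chosen after seeing the data, and promoters from RefSeq. Python 3.11.15, NumPy 2.4.6, SciPy 1.17.1, pandas 2.3.3, matplotlib 3.10.9, R 4.3.3 and edgeR 4.0.16 (TMM) were used.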

Additional observations from a re-analysis of the deposited data

How the results depend on the processing

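No paired analysis was possible because each group has 1 library. At a 1.5-fold threshold, 7 of the 37 genes were higher in LPS against control (3.45% of all tested genes). In siOCLN+LPS against LPS 6 were lower (15.3% of all). In the wtOCLN+LPS-labelled library against LPS, 11 were higher (8.59% of all) and 4 lower (15.1% of all). In siOCLN+LPS against the wtOCLN+LPS-labelled library 3 were lower (1.19% of all). With control as reference, 9 were at least 2-fold higher in the wtOCLN+LPS-labelled library (3.91% of all). The other counts of called genes stayed within 1.5 times under each setting tried. The mean in place of the median gave the targets 0.56 in siOCLN+LPS against LPS, 0.74 in the wtOCLN+LPS-labelled library against LPS, 0.43 in LPS against control and -0.18 in siOCLN+LPS against the wtOCLN+LPS-labelled library, and it turned the components' value in LPS against control to 0.05. With a pseudocount of 5, TGFB2 in LPS against control and NT5E in siOCLN+LPS against LPS fell short of 2-fold. Of 148 ratios, 16 changed sign with TMM and with median ratio scaling and 11 with upper quartile scaling, none larger than 0.13 on the log2 scale. Counts limit the low members, with ANKRD1 and NT5E in LPS within counting error of control. With 1 library per group the spread between cultures is unknown.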

Other observations

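CTGF, CYR61 and ANKRD1 are also known targets of SRF and its actin-sensing cofactors, and a list of 18 such genes shows values of its own. Among 16 tested, 15 were above 0 in siOCLN+LPS against LPS (median log2 ratio 0.32) and 14 in the wtOCLN+LPS-labelled library against LPS (0.34), with 16 above 0 in both under TMM scaling. Of all tested genes, 39.2% and 36.8% were above 0, or 51.1% and 51.4% with TMM scaling. At 2-fold, 2 of the 16 were higher in siOCLN+LPS and 0 in the wtOCLN+LPS-labelled library (2 with TMM scaling). With library totals, 3.32% of all tested genes were higher in each. MYL9, a myosin light chain, stood at 127 CPM in siOCLN+LPS and 118 CPM in the wtOCLN+LPS-labelled library, against 61.2 CPM in LPS and 68.7 CPM in control. ACTA2, smooth muscle actin, stood at 10.4 CPM in siOCLN+LPS, 9.54 CPM in the wtOCLN+LPS-labelled library, 4.54 CPM in LPS and 4.28 CPM in control. In LPS against control none of the 16 passed 2-fold, where 1.6% of all tested genes were higher and 0.207% lower. Their median was -0.05, or 0.04 with TMM scaling, beside -0.09 and -0.002 over all tested genes.

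TGF-beta target genes, 14 in the list, lay on both sides of LPS. Of 13 tested, 1 was at least 2-fold higher and 2 lower in siOCLN+LPS, and 1 was higher and 3 lower in the wtOCLN+LPS-labelled library (2 lower with TMM scaling). With library totals, 3.32% of all tested genes were higher in each, and 3.92% and 3.69% were lower. PMEPA1, which restrains TGF-beta signalling, had 72 counts in siOCLN+LPS and 70 counts in the wtOCLN+LPS-labelled library, against 214 counts in LPS and 275 counts in control. SNAI2, a transcription factor of mesenchymal transition, was at 2.52 CPM in siOCLN+LPS and 2.74 CPM in the wtOCLN+LPS-labelled library, against 7.57 CPM in LPS and 8.24 CPM in control. FN1, fibronectin, was highest in LPS, at 395 CPM in siOCLN+LPS, 358 CPM in the wtOCLN+LPS-labelled library, 741 CPM in LPS and 434 CPM in control. SMAD6, an inhibitory SMAD, had 51 counts in siOCLN+LPS and 65 in the wtOCLN+LPS-labelled library, against 9 in LPS and 5 in control. TGFB2 itself is given above.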
